A study of Homo sapiens with 2 samples.

Results

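Protein phosphatase 2A (PP2A) is a serine and threonine phosphatase that opposes many growth-promoting kinases, and the 10 genes described here encode proteins that restrain it, hold or activate its catalytic subunit, or add and remove a methyl group on that subunit. They were chosen by name, with 2 of them under older symbols in the deposited tables (KIAA1524 for CIP2A and PPP2R4 for PTPA). All 10 were found, each as 1 annotated row, among 55773 annotated gene symbols, and all 10 reached mean of 1 TPM (transcript abundance scaled for length and library size) that defines the 13669 measured genes.

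The study made RNA-seq libraries from NCI-H2030, an established human cell line of lung adenocarcinoma. A culture treated with SC was compared with a culture treated with miR-494-3p AS. The labels do not spell out either abbreviation, give no dose or time, and name no further agent, and the groups are called SC and AS below. Each group had 1 library, so no test was possible, no error can be given, and every difference below is one between 2 libraries of 1 cell line.

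The libraries had similar depth by the only measure the tables allow, a coverage of 3.62 reads per base for each unit of FPKM in SC and 3.54 in AS. Ratios are log2((AS + 1)/(SC + 1)) on TPM unless another measure is named, which understates the ratio of genes of low level. Values in AS were mostly above those in SC, and 14177 annotated genes reached 1 TPM in AS against 12816 in SC. Over the measured genes the median log2 ratio stood at 0.28, with 16.5% at least 2-fold higher in AS and 2.17% at least 2-fold lower. The keratins KRT8, KRT18 and KRT7 were above 50 TPM in both libraries, but EPCAM was at 0.604 TPM in SC and 1.84 in AS, CDH1 was below 0.05 TPM and KRT19 was listed at 0. Of 8 lung genes 2 reached 1 TPM, ABCA3 at 21.4 TPM in SC and 17.2 in AS and NAPSA at 1.62 and 1.04, while NKX2-1 and SFTPB were below 0.1 TPM in both libraries and SFTPC, SFTPA1, SFTPA2 and SFTA3 were listed at 0. Of 5 leukocyte markers PTPRC and CD3E were listed at 0 in both libraries, and CD14 was at 9.02 TPM (SC) and 4.21 TPM (AS). Of 6 fibroblast markers 3 reached 1 TPM in both libraries. COL1A1 was at 26.3 TPM (SC) and 15.8 TPM (AS), COL3A1 at 4.32 and 7.23 and LUM at 1.67 and 2.35. DCN and PDGFRB were below 0.05 TPM, and COL1A2 was listed at 0.

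PP2A works as a complex of a catalytic subunit, a scaffold and 1 of many regulatory subunits, of which the B55 and B56 families matter in mitosis. Its activity is set by more than its subunits. Small phosphoproteins block the B55 form when cells enter mitosis, other inhibitors act on the B56 form, chaperone-like proteins bind the free catalytic subunit, and methylation of the last residue of that subunit favours the assembly of some complexes. In tumours, several of these inhibitors are known for keeping MYC and AKT signalling high, and SET, the inhibitor named in the title of the series, is the best known among them beside CIP2A.

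Since the treatment is named for miR-494-3p, its match to these transcripts is shown first. The mature microRNA is printed below from RefSeq (GRCh38.p14, chromosome 14, 101029681 to 101029702, plus strand), with the seed, bases 2 to 8, in capitals.
hsa-miR-494-3p: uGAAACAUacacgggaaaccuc

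For each gene, the longest 3′ UTR annotated in GENCODE release 29 was searched on the transcript strand for the 8-base match ATGTTTCA and, outside such a match, for the 7-base matches ATGTTTC and TGTTTCA. Only ENSA and ARPP19, the paralogous pair of B55 inhibitors, held a match among the 10 genes, and SET held 1 as well. The windows below carry the match in capitals with 11 bases on each side. The UTR positions are counted from the first base after the stop codon.
ENSA, bases 464 to 470: gctattgcttcATGTTTCcattatggcag
ENSA, bases 1209 to 1216: tgtgttgacccATGTTTCAgatgcagtctg
ARPP19, bases 524 to 530: ggccttaaaccTGTTTCAgctttaacagt
SET, bases 779 to 785: aattttcttttTGTTTCActggaaaggaa

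The lengths of these UTRs matter for reading that count. Among 10557 measured coding genes with a 3′ UTR, 27.6% held at least 1 match. Among genes whose 3′ UTR was within 10% of the length of that of ENSA (2357 bases) the share was 40.8%, and 10.8% held at least 2 matches. At the length of ARPP19 (4889 bases) it was 64.2%. TIPRL and FAM122A held no match in 2068 and 3580 bases, where 38.3% and 55.3% of genes of such length held one. The first ENSA window was present in 3 of 12 annotated coding transcripts of the gene, the second in 2 of 12, and the ARPP19 window in 5 of 11. Another ENSA transcript, with a different 3′ UTR of 1593 bases, held 1 match outside both windows, shown here in the same way.
ENSA, other UTR, bases 445 to 451: gataaatgcctTGTTTCAgtgtggttgga

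This transcript spans 8346 bases of the genome, the length of the assembled ENSA locus in both libraries, while those with the first 2 windows span at most 6297. The deposited tables give no levels by transcript, and the length of the locus does not show which of these transcripts were present. KIAA1524, BOD1 and TIPRL, the genes with the highest ratios below, had no match.

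Of the 10 genes, 3 had at least 2-fold more transcript in AS (BOD1, KIAA1524 and TIPRL), none was 2-fold lower and 7 lay within 2-fold. That count stands against 16.5% of all measured genes for higher values and 2.17% for lower ones. By coverage the same 3 genes passed 2-fold (background 9.47%), and by the assembled locus BOD1 and TIPRL did (16.1%). After centring on the all-gene median BOD1 and KIAA1524 did (9.17%), and by FPKM with 1 added only BOD1 did (9.37%). Without the added 1, the FPKM of KIAA1524 was 3.43-fold higher in AS and that of TIPRL 2.01-fold. Each of these counts rests on 10 genes and 2 libraries. The median log2 ratio of the 10 genes was 0.27, against 0.28 for all measured genes, and 5 of the 10 lay above the all-gene median. The group as a whole thus had the ratio of an average gene, while its members ran from -0.53 for ENSA to 1.47 for BOD1.

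**Figure D1:**
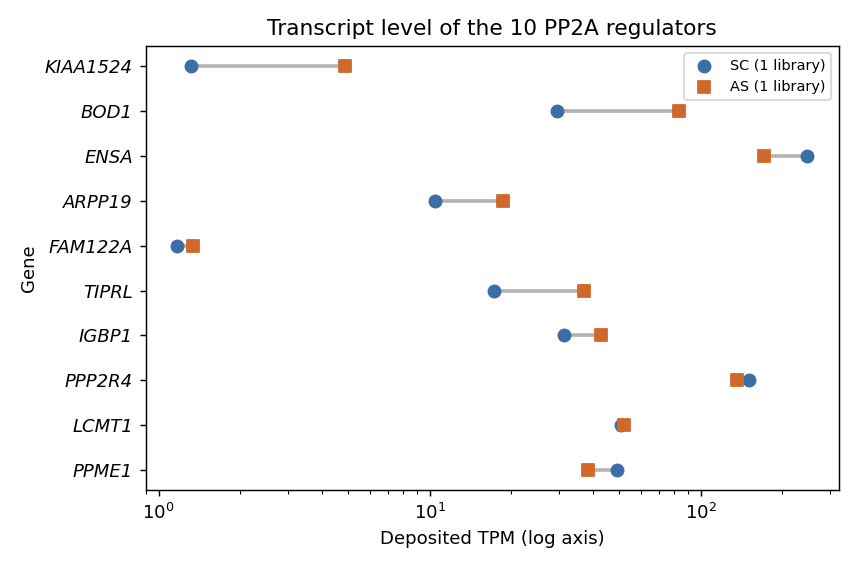
Deposited TPM of each gene (log axis) in the SC library (circles) and the AS library (squares), with 1 library in each group and no error bars. KIAA1524, BOD1 and TIPRL lie clearly to the right in AS, ENSA lies to the left, and LCMT1 and FAM122A overlap or nearly overlap.

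The levels spanned more than 2 orders of magnitude. ENSA was the most abundant in both libraries and PPP2R4 came next, at 247 and 151 TPM in SC. FAM122A and KIAA1524 were the least abundant, at 1.17 and 1.32 TPM in SC. BOD1 moved from place 6 in SC to place 3 in AS, and PPME1 from place 4 to place 6. The order depends on the measure. In the deposited coverage column, the mean read depth per base, IGBP1 stood second in SC at 57.4 and PPP2R4 at 43.4, although PPP2R4 had the higher TPM. For PPP2R4 the coverage per FPKM was 15.7% of the constant of the library in both libraries, the lowest share among the 10 genes.

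KIAA1524 encodes CIP2A, an inhibitor of PP2A that stabilises MYC and holds broken chromosome ends together in mitosis with TOPBP1 (ENSG00000163507, chromosome 3, 108268716 to 108308491, minus strand, GRCh37). It was at 1.32 TPM (SC) and 4.86 TPM (AS), a log2 ratio of 1.34 and, without the added 1, a 3.69-fold difference. Its coverage was 2.41 reads per base in SC and 7.12 in AS, a 2.95-fold difference with a log2 ratio of 1.19 on the TPM scale. In SC the gene was assembled only in pieces. One assembled locus of 9567 bases stood at 3.11 TPM and another of 8177 bases at 1.78 TPM, whereas AS held a locus of 39584 bases over nearly the whole gene at 4.85 TPM. The log2 ratio from the larger SC piece was 0.51, under 2-fold.

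BOD1 encodes a kinetochore protein that inhibits the B56 form of PP2A and is needed for chromosome alignment (ENSG00000145919, chromosome 5, 173034517 to 173043663, minus strand). It was at 29.5 TPM (SC) and 83.4 TPM (AS), a 2.83-fold difference with a log2 ratio of 1.47. The ratio was 1.39 in coverage (41.9 and 102 reads per base), 1.44 in the assembled locus and 1.19 after centring on the all-gene median. BOD1 was the only one of the 10 genes that stayed past 2-fold under each of the 7 alternative pseudocounts, columns and scalings. Its transcript has a GC content of 52.2%, against 34.9% for KIAA1524 and 37.1% for TIPRL.

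ENSA and ARPP19 encode small proteins that the kinase Greatwall (MASTL) phosphorylates at mitotic entry and that then block the B55 form of PP2A. ENSA (ENSG00000143420, chromosome 1, 150573327 to 150602088, minus strand) was at 247 TPM (SC) and 171 TPM (AS), a log2 ratio of -0.53. Its direction depended on the measure. Coverage was 145 reads per base in SC and 121 in AS, and its log2 ratio on the TPM scale was -0.12. The assembled locus stood at 247 TPM (SC) and 275 TPM (AS), a log2 ratio of 0.16. The coverage of that locus was 171 reads per base in SC and 143 in AS, so it was higher in AS in TPM only. In AS the assembled locus was 103.9 TPM above the annotated row, and in SC the 2 differed by 0.22 TPM. The next largest gap among the 10 genes was 2.50 TPM, for PPP2R4 in AS. The coverage per FPKM of ENSA was 32.0% of the library's constant in SC and 42.4% in AS, whereas those of KIAA1524 (100% to 88.0%) and IGBP1 (100% to 89.8%) moved the other way. How reads were shared among ENSA transcripts was not tested.

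A pseudogene of ENSA also has a row in the tables. This row, ENSAP2 (chromosome 14, 83159048 to 83159399), was listed at 39.5 TPM (SC) and 23.6 TPM (AS), a log2 ratio of -0.72. The tables do not show which of its reads belong to ENSA. With the rows of ENSA and ENSAP2 summed, the level was 286 TPM (SC) and 195 TPM (AS) (log2 ratio -0.55).

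ARPP19 (ENSG00000128989, chromosome 15, 52839242 to 52862080, minus strand) was at 10.4 TPM (SC) and 18.6 TPM (AS), a log2 ratio of 0.78. The coverage was 9.21 and 15.0 reads per base (0.73), and the assembled locus gave 0.78. ARPP19 was thus higher in AS in every measure but under 2-fold, while its paralog was lower in TPM. Within a library the ratio of ENSA to ARPP19 does not depend on the scaling between libraries. It was 23.7 in SC and 9.18 in AS in TPM, 15.7 and 8.04 in coverage, and 23.6 and 14.8 in the assembled loci. All 3 gave ENSA a smaller excess over ARPP19 in AS, by different amounts.

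FAM122A encodes another inhibitor of the B55 form (ENSG00000187866, chromosome 9, 71394964 to 71398609, plus strand). It was at 1.17 TPM (SC) and 1.34 TPM (AS) (log2 ratio 0.11), with 2.15 and 2.23 reads per base. It was the least abundant of the 10 genes, and at this depth a difference of such size cannot be told from none. The gene lies inside PIP5K1B on the same strand, whose row was listed at 0 in both libraries.

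**Figure D2:**
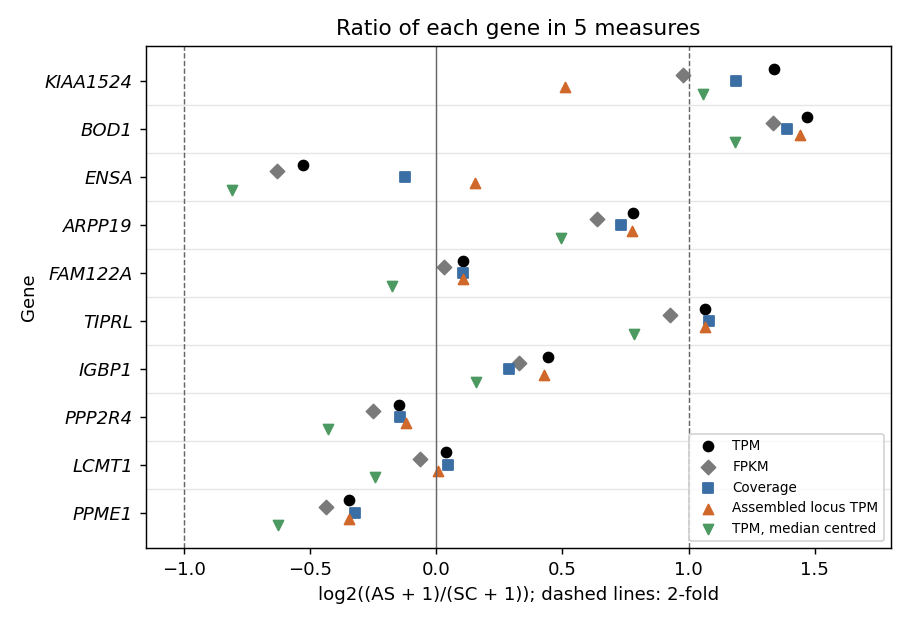
Log2 ratio of AS to SC for each gene (pseudocount 1) from TPM, FPKM, coverage, the assembled locus, and TPM centred on the median of all measured genes, with 1 library in each group. BOD1 lies past the dashed 2-fold line in all 5 measures, KIAA1524 and TIPRL cross it in some, and the points of ENSA fall on both sides of 0.

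TIPRL, IGBP1 and PPP2R4 act on the catalytic subunit itself. TIPRL binds the catalytic subunits of PP2A and of the related phosphatases PP4 and PP6 and takes part in inactivating them. It (ENSG00000143155, chromosome 1, 168148171 to 168169950, plus strand) was at 17.2 TPM (SC) and 37.1 TPM (AS), a 2.16-fold difference with a log2 ratio of 1.07. Coverage was 27.9 and 55.5 reads per base (1.08), and the assembled locus gave the same 1.07. The value sits close to the threshold and fell under it at 0.78 after centring on the all-gene median.

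IGBP1 encodes alpha4, which shields the free catalytic subunits of PP2A, PP4 and PP6 from degradation (ENSG00000089289, chromosome X, 69353299 to 69386174, plus strand). It was at 31.3 TPM (SC) and 42.9 TPM (AS) (log2 ratio 0.44), with a coverage of 57.4 and 64.1 reads per base (0.29). Its 4 named pseudogenes were all under 0.5 TPM. PPP2R4 encodes PTPA, a prolyl isomerase that activates the catalytic subunit (ENSG00000119383, chromosome 9, 131873229 to 131911225, plus strand). It was at 151 TPM (SC) and 136 TPM (AS) (-0.15), and the coverage was 43.4 and 35.6 (-0.14). Both lay within 2-fold in each measure, IGBP1 somewhat higher in AS and PPP2R4 somewhat lower.

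LCMT1 and PPME1 are the opposing methylation enzymes. LCMT1 puts the methyl group on the carboxyl end of the catalytic subunit with S-adenosylmethionine as donor, and PPME1 takes it off and also binds inactive enzyme. LCMT1 (ENSG00000205629, chromosome 16, 25123050 to 25189552, plus strand) was at 50.7 TPM (SC) and 52.1 TPM (AS), a log2 ratio of 0.040, and at 48.2 and 45.3 reads per base. PPME1 (ENSG00000214517, chromosome 11, 73882144 to 73965748, plus strand) was at 49.2 TPM (SC) and 38.6 TPM (AS), a log2 ratio of -0.34, and at 30.4 and 21.8 reads per base (-0.32). In these columns LCMT1 was nearly level and PPME1 lower in AS, in a transcriptome where most genes were higher. The assembled LCMT1 locus was at 52.5 TPM (SC) and 52.8 TPM (AS). Its coverage was 15.5 reads per base in SC and 32.3 in AS, while that of the assembled PPME1 locus was 31.3 and 22.5.

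The balance of the pair can be read within each library. The ratio of PPME1 to LCMT1 in TPM was 0.971 in SC and 0.739 in AS. In coverage it was 0.632 and 0.481, and in the TPM of the assembled loci 0.938 and 0.731. The demethylating enzyme thus had less transcript relative to the methylating enzyme in AS in each of these measures. With 1 library in each group, how much of this lies within culture-to-culture variation is unknown.

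Base composition moves with these ratios. When 10767 measured coding genes were split into 10 equal bins by transcript GC content, the median ratio was 0.88 in the bin of lowest GC content (29.6% to 39.1%) and -0.27 in that of highest (62.6% to 74.2%). KIAA1524, ARPP19 and TIPRL belong to the lowest bin, where 41.3% of genes passed 2-fold upward. Against the median of that bin KIAA1524 was 0.46 higher, TIPRL 0.18 higher and ARPP19 0.10 lower. BOD1 was 1.20 above the median of its own bin (50.3% to 53.3% GC content), where 8.83% of genes were 2-fold higher.

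At the other end, ENSA and PPME1 share a bin (44.3% to 47.1%) with a median of 0.63, and lay 1.16 and 0.98 below it. In coverage they were 0.63 and 0.84 below. The GC content used for PPME1 was that of a 4055-base transcript, longer than its coding transcripts with a complete annotated 3′ UTR (2677 and 2496 bases). FAM122A was 0.76 below the median of its bin. PPP2R4, IGBP1 and LCMT1 lay within 0.25 of theirs. Over the 10 genes, 5 were above the median of their bin and 5 below, with a median difference of -0.051. The part of base composition in the ratios of single genes was not tested.

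**Figure D3:**
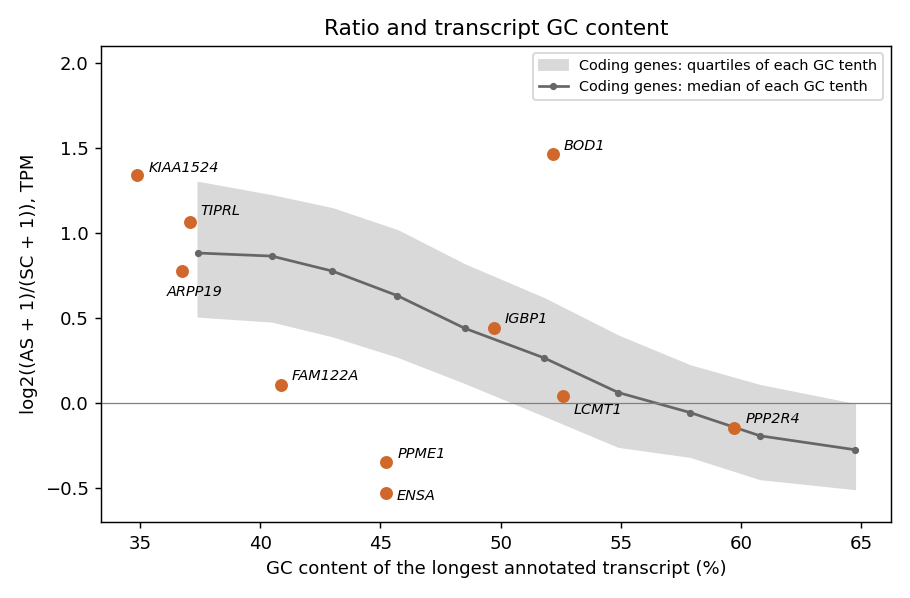
Log2 TPM ratio (y axis, pseudocount 1) against the GC content of the longest annotated transcript (x axis, %) for the 10 genes, over the median (line) and quartiles (band) of the measured coding genes in 10 bins of GC content. BOD1 lies 1.20 above the median of its bin, whereas ENSA and PPME1 lie 1.16 and 0.98 below theirs.

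The genes that these regulators act with were taken from 9 lists drawn from textbook knowledge. The lists were chosen with earlier results of these data known. Their counts stand against the 16.5% of all measured genes that were 2-fold higher. That share was 23% with a pseudocount of 0.1, 5.32% with one of 5, 8.75% after trimmed mean scaling and 14.1% from a mean of 5 TPM. Among the other PP2A inhibitors, 2 of 4 measured genes were past 2-fold, both higher in AS, and 1 after centring on the all-gene median or trimmed mean scaling. SET was at 30.4 TPM (SC) and 79.1 TPM (AS) (log2 ratio 1.35), and ANP32E, which like SET is a histone chaperone, at 10.8 and 27.3 TPM (1.26). ANP32A stood at 0.52. The list median was 0.89, and the median GC content was 44.8%, in a bin where 25.6% of coding genes were 2-fold higher. In TPM SET and BOD1 thus had similar levels in both libraries and similar ratios. In coverage SET was at 17.4 (SC) and 41.2 (AS) reads per base, below BOD1 at 41.9 and 102.

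Of the 4 catalytic and scaffold subunits of PP2A, 1 was 2-fold higher, against 16.5% of all genes, and none was after centring or trimmed mean scaling. PPP2CA was at 14.0 and 34.8 TPM (1.25), PPP2CB at 15.8 and 31.5 TPM (0.95) and the scaffold PPP2R1B at 6.87 and 8.22 TPM (0.23). The more abundant scaffold PPP2R1A was the only one of the 4 that was lower in AS, at 207 and 185 TPM (-0.17). None of 12 measured regulatory subunits and striatins was past 2-fold (median 0.49), with PPP2R3C (0.92), PPP2R5E (0.90) and the B55 subunit PPP2R2A (0.77) showing the largest ratios. With a pseudocount of 0.1, 4 of them were 2-fold higher, against 23% of all genes, and in the assembled locus 2 were (PPP2R3C and PPP2R5E), against 16.1%.

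PP4 and PP6, the relatives that TIPRL and IGBP1 also bind, had 4 of 11 measured genes past 2-fold, all higher in AS, against 16.5% of all genes. The PP4 regulatory subunits led them. PPP4R1 was at 2.08 and 15.5 TPM (2.42), SMEK2 at 2.33 and 11.9 TPM (1.95) and SMEK1 had a ratio of 1.46. In coverage these ratios were 0.96, 1.54 and 1.01, so that of PPP4R1 was under 2-fold there. In the assembled locus they were 1.00, 1.25 and 0.63, so that of SMEK1 was under 2-fold in this measure. By coverage 3 of the 11 genes were past 2-fold, against 9.47% of all genes. The median GC content of the list was 44.0%, in a bin where 33.7% of coding genes were 2-fold higher in TPM.

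On the pathway of ENSA and ARPP19, 4 of 12 genes were 2-fold higher and none lower, against 16.5% and 2.17% of all genes. The median ratio was 0.26, close to that of all genes. The median GC content was 46.0%, in a bin where 25.6% of coding genes were 2-fold higher. MASTL, the Greatwall kinase that arms both inhibitors, was at 4.82 and 15.0 TPM (1.46), CDK1, the mitotic kinase that activates it, at 9.86 and 33.7 TPM (1.67), and the CDK1 activator CDC25A at 4.56 and 14.2 TPM (1.45). MASTL was at 1.29 in coverage and at 0.96, under 2-fold, in the assembled locus. The kinase was thus higher in AS together with ARPP19, and ENSA was not in TPM or coverage.

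The list of kinetochore proteins around BOD1 and the B56 form had 6 of 10 measured genes 2-fold higher and none lower, a median of 1.07 and a median GC content of 41.5%. SGOL1, the shugoshin that brings PP2A to centromeres, was at 1.16 and 7.56 TPM (1.99), and the checkpoint proteins MAD2L1 and BUB1 were at 2.95 and 8.67 TPM (1.29) and 10.2 and 25.7 TPM (1.25). Over all genes 16.5% were 2-fold higher, and 40.1% in the GC bin that holds the median of this list (39.1% to 41.7%). In coverage 4 of the 10 were past 2-fold, with a pseudocount of 5 there were 3, after centring on the all-gene median 2 and after trimmed mean scaling 1.

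Among 8 partners and targets of CIP2A, 2 were 2-fold higher, against 16.5% of all genes, and 1 in FPKM, in coverage, in the assembled locus, after either scaling and with a pseudocount of 5. TOPBP1 was at 2.13 and 10.5 TPM (1.88), the mitotic kinase NEK2 at 3.45 and 9.52 TPM (1.24) and the repair adaptor MDC1 at 16.2 and 29.7 TPM (0.84). MYC, the protein CIP2A is best known to protect, was at 22.0 and 26.0 TPM (0.24), near the all-gene median. Of 7 measured genes listed around the supply of S-adenosylmethionine, the donor that LCMT1 uses, 1 was 2-fold higher, against 16.5% of all genes. None was in FPKM, in coverage, after either scaling, with a pseudocount of 5 or from a mean of 5 TPM. The gene past 2-fold in TPM was MTRR, the methionine synthase reductase, at 1.20 and 4.17 TPM (1.23, and 0.46 in coverage). MAT2B (0.88) and MTR (0.50) followed, and the list median was 0.47.

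**Figure D4:**
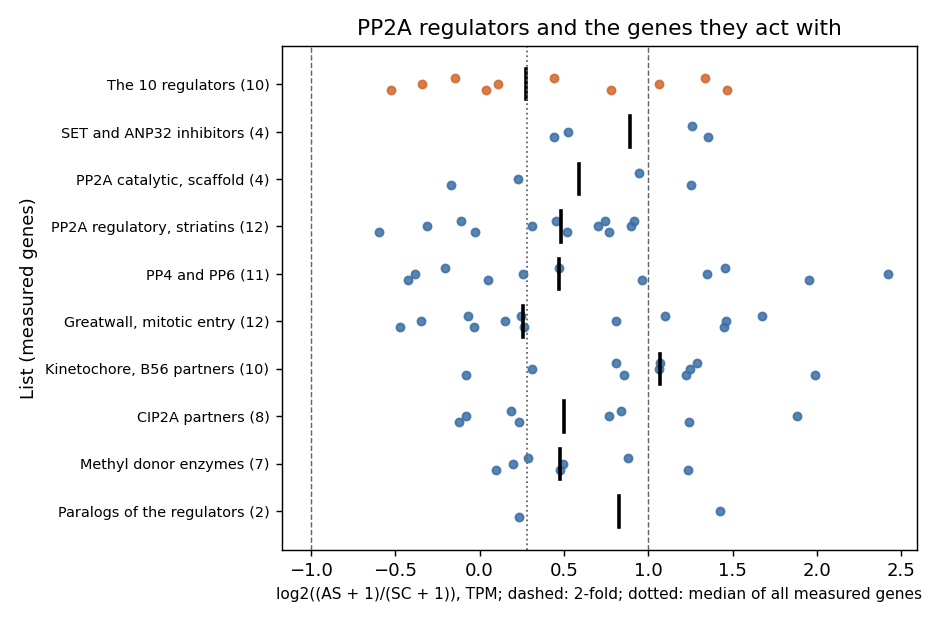
Log2 TPM ratio (pseudocount 1) of every measured gene in the 10 regulators and the 9 lists, with the list median as a black bar, 1 library in each group. No gene shown lies past the left dashed line (2-fold lower), and the medians run from 0.26 for Greatwall and mitotic entry to 1.07 for the kinetochore list.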

How the data were processed

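Total RNA was purified on columns and made into strand-preserving libraries, per the labels' protocols. The authors deposited 1 table per library with coverage (a signal of read depth per base), FPKM and TPM, per the file headers. The deposited TPM column was handled as a score, because annotated rows and assembled loci together exceed the sum of 1000000 that the assembled loci reach alone. The sources used here give no aligner, quantifier or strand setting. The submitters' processing notes name GRCh38 (hg38), but the tables' coordinates are those of GRCh37, and are printed as deposited. Read counts are unknown, so no interval was computed.

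Rows of 1 symbol were summed, genes were kept from a mean of 1 TPM, and ratios used a pseudocount of 1. Coverage was divided by the library's coverage per FPKM and multiplied by its TPM per FPKM (1.98 in SC, 2.13 in AS). The assembled locus was the one on the gene's strand with most overlap, and its TPM was used. GENCODE release 29, matched by identifier, gave GC content, gene type, 3′ UTRs and the genomic spans of transcripts. Its exon and coding coordinates served only to place the 3′ UTRs and measure these spans. None of its positions was set against the deposited ones. Calculations used Python 3.11.15 and pandas 2.3.3 and were tested on simulated data.

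The members and lists were chosen with earlier results of these data known. The rule for named genes was the 10 members, SET, and the 3 measured genes with the largest absolute ratio in each list. MYC, PPP2R1A, ENSAP2 and genes that overlap a member were named outside it, after their values were seen. The alternatives tried were 11 other pseudocounts, columns, scalings, filters and thresholds.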

Additional observations from a re-analysis of the deposited data

Results flagged for a closer look

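Assembled loci on the opposite strand of a member were not used in any comparison. Inside PPME1 such a locus of 139 bases was at 0.377 TPM (SC) and 1.55 TPM (AS), above the SC value. It has the coordinates of the annotated small nucleolar RNA SNORA7 (chromosome 11, 73963459 to 73963597). Inside LCMT1 a locus of 5666 bases was at 0.0387 TPM in AS, and SC held none. No source used here says whether the quantification took strand into account.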

How the results depend on the processing

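No paired analysis was possible because each group has 1 library. The count of the 10 genes at least 2-fold higher was 3 in TPM and 1 both with a pseudocount of 5 and in FPKM with 1 added. Their median log2 ratio of 0.27 was 0.18 in FPKM, -0.0081 after median centring and 0.0091 after trimmed mean scaling. KIAA1524 was under 2-fold in FPKM (0.98), in the assembled locus (0.51) and at a pseudocount of 5 (0.64), and TIPRL with a pseudocount of 5 (0.92), in FPKM (0.93), after centring (0.78) and after trimmed mean scaling (0.73). Signs turned for LCMT1 in FPKM (-0.062), after centring (-0.24) and after trimmed mean scaling (-0.30), and for FAM122A after both scalings (-0.18 and -0.083). The sign of ENSA turned in the TPM of the assembled locus (0.16), whose coverage was lower in AS. The median of the Greatwall and mitotic entry list was -0.027 after centring and -0.091 after trimmed mean scaling. Over all measured genes, 2251 were 2-fold higher and 297 lower. The higher count was 727 with a pseudocount of 5, 1281 in FPKM, 1294 in coverage, 1253 after centring, 1196 after trimmed mean scaling, 1268 from a mean of 5 TPM and 4669 at 1.5-fold. The lower count was 501 with a pseudocount of 0.1, 70 with one of 5, 118 in coverage, 696 after centring, 703 after trimmed mean scaling, 137 from a mean of 5 TPM, 181 among coding genes and 1034 at 1.5-fold. The cause of these shifts was not tested. FPKM and TPM differ by 1 constant per library (TPM per FPKM of 1.98 in SC and 2.13 in AS). The FPKM ratios also add 1 to values smaller than those in TPM, which lowers the ratios of genes of low level further. Without the added 1, KIAA1524 was 3.43-fold and TIPRL 2.01-fold higher in AS in FPKM. Depth limits KIAA1524 and FAM122A most, at 2.41 and 2.15 reads per base in SC.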

Other observations

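Paralogs of the regulators were mostly at low level. Of 6 listed, 2 were measured. FAM122B, the paralog of the B55 inhibitor FAM122A, was at 2.74 TPM (SC) and 9.05 TPM (AS) (log2 ratio 1.43, and 1.21 in coverage). Its level was above that of FAM122A itself in both libraries (1.17 TPM in SC and 1.34 TPM in AS). LCMT2, which methylates a transfer RNA base and not PP2A, was at 2.13 and 2.67 TPM (0.23). ARPP21 and BOD1L2 were listed at 0 in both libraries.

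Assembled loci on the strand opposite to ENSA summed to 3.21 TPM in SC, and AS held none. The neighbour C2CD3, which overlaps the start of PPME1 on the other strand, was at 3.67 TPM (SC) and 7.66 TPM (AS), while CRAT, which overlaps the start of PPP2R4 likewise, was at 44.0 and 33.6 TPM.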
